A study of Rattus norvegicus with 10 samples.

Results

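The CDR3s described here were chosen by their presence: each was read at least 1 time in at least 2 of the 5 rats immunized with HuD and in none of the 5 rats immunized with DNP. The rule took every read called productive, meaning in frame and without a stop codon, and compared CDR3s as amino acid sequences. It selected 1638 of the 215200 unique CDR3s of the 10 animals, and 129830 unique CDR3s came from HuD animals. Presence in the animals therefore defined the members, and the number of animals and of reads behind a member is given as a description and not as evidence.

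The animals were outbred Wistar rats from shared litters, and 1 heavy chain library was made from the RNA of a whole spleen cell suspension of each. All were immunized in complete Freund's adjuvant and received 3 boosts in incomplete adjuvant. The HuD group was given recombinant human HuD, a neuronal RNA-binding protein, and the DNP group was given keyhole limpet hemocyanin carrying dinitrophenyl groups. Reverse transcription was primed in the constant domains of IgG, IgA, IgD, IgE and IgM with a molecular tag, all libraries were sequenced together, and a read is here 1 collapsed tag. The libraries held 60647 to 259834 productive reads, and an amplicon of a single locus offers no other markers against which the spleen label could be checked. A higher read number can come from more cells of a clone or from more RNA per cell, and these cannot be told apart.

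The CDR3 is the loop of the heavy chain where the V, D and J segments are joined. Exonuclease trimming and added nucleotides make it the most variable part of the antibody, and it often contributes much of the contact with antigen. CDR3s that recur in several individuals are called public or stereotyped. Known routes to a public CDR3 are rearrangements that are easily made, with few added bases, and unlike rearrangements that encode a similar loop and are kept during a response.

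Of the members, 1388 (84.7%) were read in 2 HuD animals, 195 in 3, 41 in 4, and 14 in all 5. The 14 in all 5 animals are printed below because they are the widest spread, and their lengths run from 5 to 12 residues. They held 1929 reads together.
IGHV5-29 led in all 5 animals: ASRDY
IGHV5-7 led in all 5 animals: ARHNSGYGVMDA
IGHV5-20 led in all 5 animals: TTGRDY
Same first 7 residues as the second: ARHNSGYGYFDY
Same first 7 residues as the second, 1 residue shorter: ARHNSGYVMDA
IGHV5-31 led in 4 of 5 animals: TRENYYSADY (10 residues)
IGHV5-31 led in 4 of 5 animals: TRGGRWYFDF (10 residues)
IGHV2-63 led in 3 of 5 animals: TRDLYDFDY
IGHV5-31 led in 3 of 5 animals: TREGAY
IGHV5-31 led in 2 of 5 animals: TRGGDY
IGHV5-43 led in 4 of 5 animals: ARERNWERYFDY
IGHV5-29 led in 4 of 5 animals: ASVDY
IGHV5-29 led in 2 of 5 animals: ARGGNWFAY
IGHV5-7 led in 2 of 5 animals: ARQGY
Loops of 5 or 6 residues made up 6 of these 14, and 3 began with the same 7 residues, ARHNSGY. The first residues of a CDR3 come mostly from the V segment and the last from the J segment, so a loop of 5 residues holds little besides these ends.

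Reads of the 14 were uneven between animals. ARHNSGYGVMDA had 18, 112, 23, 174 and 205 reads in HuD1 to HuD5, and its most frequent V gene was IGHV5-7 in each. ASRDY had 408, 431, 3, 74 and 3 reads, with IGHV5-29 first in each animal. TTGRDY had 85, 33, 17, 2 and 5 reads, with IGHV5-20 first in each. These were the 3 of 14 whose leading IGHV gene did not change, and ARHNSGYGVMDA, ASRDY, TTGRDY and TRENYYSADY were the 4 read at least 2 times in every animal. TRENYYSADY had 21, 3, 12, 3 and 11 reads. At the other end, ARGGNWFAY had 1, 2, 1, 1 and 1 reads with 4 different leading V genes. The 5 DNP libraries held 675370 productive reads together. For a CDR3 not chosen by its absence, 0 reads in this pool would allow up to 4.44 RPM (reads per 1000000 productive reads), by counting error alone. Members were chosen for 0 DNP reads, so for them this value describes depth only.

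Most members rested on very few reads. The 1638 members held 63340 reads, with a median of 3, and 698 (42.6%) had 1 read in each of 2 animals. In 1283 (78.3%) the animal with the second most reads had a single read, and 153 (9.34%) had at least 5 there. At least 10 reads in a second animal were seen for 92 members and at least 100 for 12. The 10 members with the most reads held 34.3% of all member reads, and 100 held 78.4%. Of all member reads, 86.7% lay in the animal where that member was most frequent, so most abundant members were frequent in 1 animal and rare in the others.

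**Figure D1:**
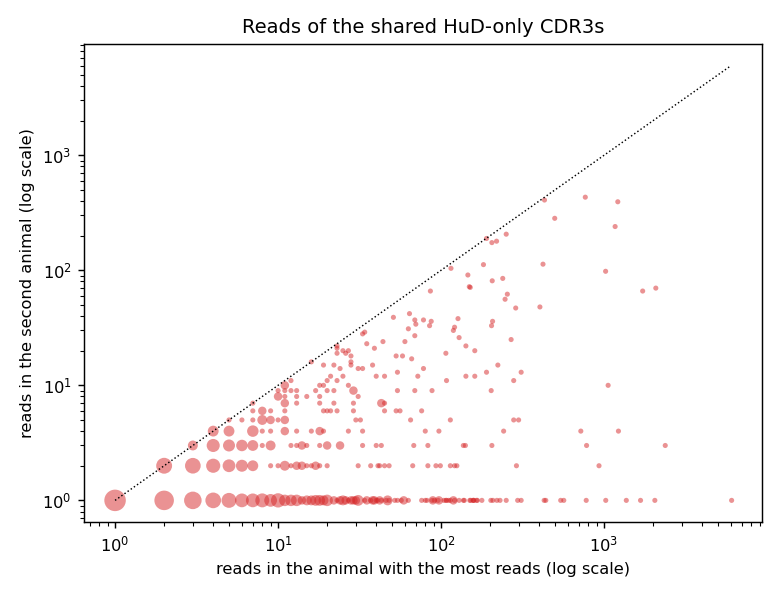
Reads of each of the 1638 members in the animal with the most reads (horizontal) and in the animal with the second most (vertical), both on log scales. Larger points stand for more members and the dotted line for equal reads. Most members lie on the bottom row at 1 read, and 12 reach 100 reads in the second animal.

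Of the 10 members with the most reads, 6 had 4 or fewer reads in their second animal. ARHGYNSYFDY had 0, 1, 0, 6061 and 1 reads in HuD1 to HuD5. ARSVFDY had 0, 3, 2373, 0 and 0 reads. VRHGYTRYYFDY had 0, 1, 0, 2049 and 1 reads. These 3 were frequent in a single animal and near the smallest possible level in the others, and TRGYVMDA, ARLGGG and TRHGGLRNWFAY had 1, 1 and 4 reads in their second animal. The 4 others had more there, with 70 for TRGYYFDY, which had 2077, 0, 70, 3 and 1 reads in HuD1 to HuD5, 66 for TGPFDY, 394 for TTGLH and 240 for TRGGFYRY. Of 95 members with 100 or more reads in an animal, 36 had a single read in the second.

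Other members were abundant in several animals. ARHGIYNNYGWFAY had 498, 172, 88, 283 and 0 reads. TRGGYYRY had 0, 2, 432, 0 and 767 reads, and ARGGYFRY had 0, 0, 190, 3 and 189. TTGLH had 0, 1, 1214, 394 and 0 reads, and ATSPYYWYFDF had 206, 3, 0, 251 and 40. In these members the second animal reached at least 189 reads, and ASRDY (408 reads in its second animal) and ARHNSGYGVMDA (174) were of the same kind.

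Each HuD animal held 557 to 936 members, 2.35% to 3.21% of its unique CDR3s. Members took 8.87%, 4.41%, 6.52%, 10.3% and 4.67% of productive reads in HuD1 to HuD5, a mean of 6.95% ± 2.58 (SD, n = 5). HuD4 was highest, where ARHGYNSYFDY alone gave 6061 of 18928 member reads. Member reads in HuD4 averaged 4.72 sequenced copies per tag, against 1.30 to 1.95 in the other animals and 1.96 over the whole HuD4 library, and the part of copy number in the read count was not tested. HuD2 and HuD4, the animals with the most unique CDR3s, had 393 members in common. HuD1 and HuD3, with the fewest, had 135.

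The number of shared CDR3s depended on depth. When every library was thinned to 60647 reads, 553.8 ± 13.9 (SD over 10 draws) CDR3s were shared by HuD animals alone and 705.5 ± 12.7 by DNP animals alone. At full depth the order was opposite, 1638 against 1095, with HuD libraries of 156272 to 224573 reads and DNP libraries of 60647 to 259834. The larger number of HuD-only members therefore did not hold at equal depth.

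Members were short loops. Their mean length was 9.46 residues and their median 9, against 12.4 and 12 for the 125682 CDR3s read in 1 HuD animal alone. In HuD1 to HuD5 the mean length of members minus that of the animal's own single-animal CDR3s was -2.54, -3.03, -3.04, -2.75 and -3.24 residues, with a mean of -2.92 ± 0.277 (SD, n = 5). The difference had the same sign in 5 of 5 animals, and an exact two-sided sign-flip permutation test gave p = 0.0625, the smallest that 5 animals allow. Each member is counted in at least 2 animals, so the 5 differences are not independent. Loops of 8 residues or fewer were 35.8% of members and 8.46% of single-animal CDR3s. Loops of 15 or more were 2.69% and 21.5%. CDR3s read under both antigens were still shorter, at a mean of 8.82 residues. DNP-only shared CDR3s were longer, at 10.2. Within the members, mean length was 9.54 for those in 2 animals, 9.04 in 3, 9.02 in 4 and 8.43 in all 5.

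**Figure D2:**
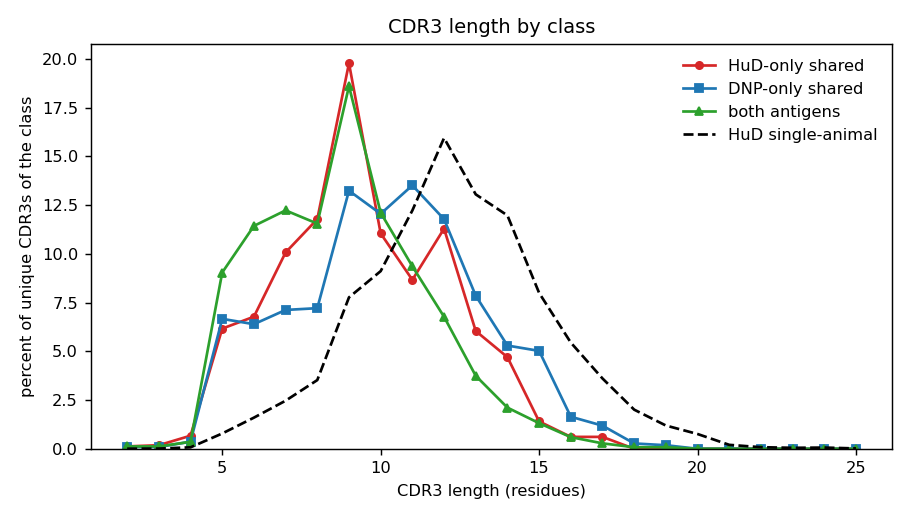
Percent of the unique CDR3s of each class (vertical) by CDR3 length in residues (horizontal). Shared HuD-only CDR3s peak at 9 residues and CDR3s of a single HuD animal at 12.

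Because length sets how much of the loop comes from the J segment, composition was compared with single-animal CDR3s weighted to the same lengths. Tyrosine was 18.9% ± 0.601 of member residues against 15.1% ± 0.224 at matched length, a difference of 3.78 points in the same direction in 5 of 5 animals. Phenylalanine was higher by 1.69 points, arginine by 1.49 and aspartate by 0.835, each in 5 of 5 animals. Threonine was 2.79 points lower (5.30% ± 0.282 against 8.09% ± 0.226), and leucine, proline, serine and isoleucine were lower by 1.05 to 1.13 points, again in every animal. Lysine and cysteine, at 0.383% and 0.159% of residues, were lower too. Tyrosine, phenylalanine and arginine were thus higher, and threonine and several hydrophobic residues lower, among members. For each of these the exact sign-flip p was 0.0625, the smallest possible, so none can pass a threshold of 0.05 in 5 animals. Members also count in several animals, so the 5 differences are not independent. No length-matched values are given for DNP-only shared CDR3s. Without matching, and with each shared CDR3 counted once, shared minus single-animal tyrosine was 0.851 points in HuD and 1.26 in DNP animals. Serine was -1.42 and -0.923, arginine with lysine 1.88 and 0.610. Acidic residues differed in sign, at 1.24 and -0.205.

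**Figure D3:**
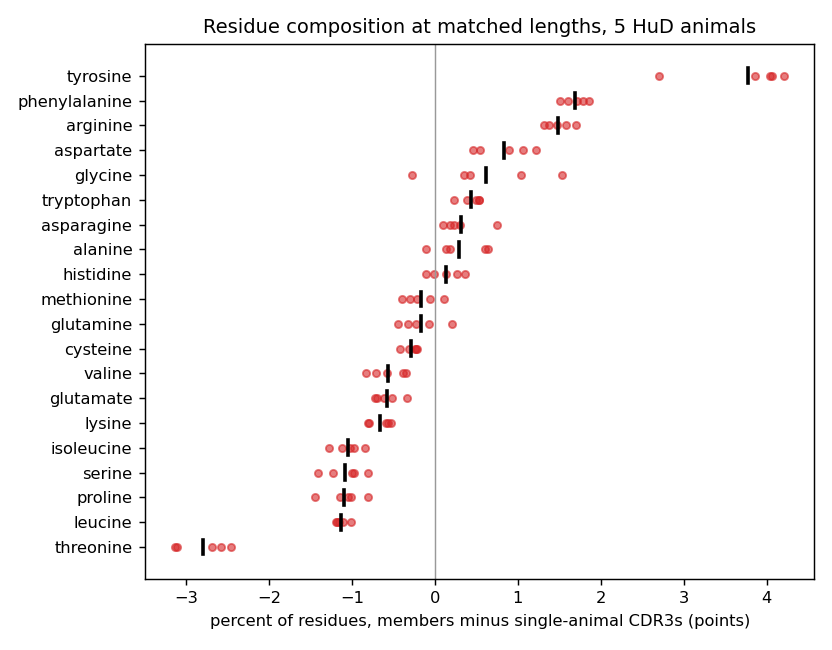
Percent of residues in members minus that in single-animal CDR3s of matched lengths (horizontal, percentage points), by residue (vertical). Points are the 5 HuD animals and the bars their means. Tyrosine lies at 3.78 points and threonine at -2.79.

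Of members, 60.3% began with alanine and arginine, against 50.4% of single-animal CDR3s of HuD animals, and 14.7% began with threonine and arginine. Endings were led by FDY, which belongs to IGHJ2, at 31.7% of members against 26.8%. Within the loop, without its first 2 and last 3 residues, 3-residue runs could be searched in 1245 members. The run YGW was in 53 of these (4.26%), in 0.778% of single-animal CDR3s and in 0.230% of DNP-only shared CDR3s. NNY was in 4.90%, 1.61% and 2.88%, and YWY, the most common run, in 7.15%, 5.82% and 4.61%. The run NSG, found in the ARHNSGY loops, was in 4.10% of members but in 5.88% of DNP-only shared CDR3s. Members that carry a run are related to each other, so these shares are descriptions.

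IGHJ2 was the leading J gene of 1036 members (63.2%), with 270 on IGHJ3, 167 on IGHJ1 and 165 on IGHJ4. Members on IGHJ2 had the shortest mean length, 8.85 residues, and those on IGHJ1 the longest, 11.2. At matched length IGHJ2 was 4.37 points lower in members than in single-animal CDR3s and IGHJ1 3.81 points higher, in 5 of 5 animals each. Without matching, IGHJ2 was 10.03 points higher and IGHJ1 differed by -1.51 points, lower in 5 of 5 animals, so the direction of both genes depended on the length comparison.

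Member reads named 80 IGHV genes, and the percents below count the leading gene of each member in each animal. IGHV5-25 was the most used, at 12.7% ± 5.78 of members in an animal, followed by IGHV5-29 at 12.03% ± 3.94 and IGHV5-31 at 9.35% ± 2.34. In these genes members and single-animal CDR3s differed by less than their spread between animals. IGHV5-29 with IGHJ2 was the most frequent pair, leading in 113 members. IGHV5-20, IGHV5-22, IGHV5-7, IGHV4-2, IGHV5S13, IGHV5-19 and IGHV5-17 followed, at 6.73%, 6.01%, 5.64%, 4.62%, 3.77%, 3.63% and 2.37%. Of 129 IGHV genes compared without matching for length, 4 (3.10%) were higher among members than among single-animal CDR3s in 5 of 5 animals, a direction that comes up in 1 of 32 sign patterns, so the number of such genes is not itself a result. IGHV4-2 stood highest of the 4, at 4.62% ± 1.48 against 1.78% ± 0.450. IGHV6-6 was 1.32% against 0.582%, IGHV1-43 1.24% against 0.773% and IGHV5-43 0.679% against 0.180%. Another 15 genes were lower in 5 of 5 animals, but 9 of these led no member in any animal. They led at most 0.0657% of single-animal CDR3s, too rare for another outcome to be likely. The largest differences among the rest were for IGHV3-1 (2.17% ± 0.808 against 2.89% ± 0.650), IGHV2S12 (0.498% against 0.996%), IGHV5S10 (1.38% against 1.79%), IGHV2-41 (0.336% against 0.623%) and IGHV2-6 (0.212% against 0.352%). Of D genes, also compared without matching for length, IGHD4-3 was 12.7% ± 1.70 of members against 6.02% ± 0.625. IGHD1-10 was 5.85% against 3.38%, and both were higher in 5 of 5 animals. IGHD1-12 was 5.67% ± 0.385 against 12.7% ± 1.10, lower in 5 of 5. These are examples, as several other D genes kept 1 direction in every animal. IGHD5-1 (6.02% against 3.90%) and IGHD4-1 (3.58% against 1.68%) were higher in 5 of 5. IGHD1-2 (4.28% against 9.37%) and IGHD1-6 (2.46% against 6.16%) were higher in 0 of 5. D assignment in short loops rests on few bases.

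A CDR3 shared by 2 animals need not sit on the same V gene. The leading J gene was the same in all carriers of 1486 members (90.7%), but the leading IGHV gene in only 416 (25.4%). In 664 members (40.5%) some IGHV gene was read with that CDR3 in at least 2 animals, and in 974 none was. Among DNP-only shared CDR3s the leading IGHV gene was the same in 44.1%. The share rose with reads: of the 153 members with at least 5 reads in each of 2 animals, considering those carriers alone, 113 (73.9%) kept their IGHV gene and 150 (98.0%) their J gene. Of DNP-only shared CDR3s with such reads, 81.1% kept it. Some CDR3s were read with many V genes, up to 39 for ARLGGG, with IGHV2-27 at 38.7% of its reads. For ARHGYNSYFDY 30 V genes were named, with IGHV5-20 at 51.4%. Of member reads, 16.7% named several IGHV genes, and the first was used.

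Members also formed families. A member within 1 substitution of another was counted as its neighbour, and 899 members (54.9%) had such a neighbour, in 912 pairs and 208 groups of at least 2. There were 17 groups of 10 or more members, with 321 members. Among DNP-only shared CDR3s 39.4% had a neighbour, there were 5 groups of 10 or more and the largest had 28. The DNP-only shared CDR3s were fewer, and the part of their number in these counts was not tested. Of the members, 1549 (94.6%) had a CDR3 within 1 substitution somewhere in the HuD reads, 1158 (70.7%) in the DNP reads, and 421 in HuD reads alone. The HuD libraries held more reads, 940526 against 675370, and members were chosen for presence in HuD animals. No other class of CDR3s was searched in this way, and the part of depth and selection in these counts was not tested.

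The 6 largest groups hold 167 members, and their most read members are printed because they carry the group values below.
Group of 49 members, 9 residues: VREDLGVNY
Group of 34 members, 14 residues: ARHGIYNNYGWFAY
Group of 23 members, 5 residues: ASRDY
Group of 21 members, 8 residues: TRGGFYRY
Group of 20 members, 7 residues: ARGTGAY
Group of 20 members, 5 residues: TTVGY
The groups differed in how strongly a single V gene led them.

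The group of 49 was the largest and joined loops such as VREDLGVNY, VREEFGVRD and AREEFGVQY. Of its reads 90.6% used IGHV4-2, 95.6% IGHJ2 and 68.3% IGHD4-3. IGHV4-2 and IGHD4-3 were higher among members above, but the 49 loops are counted there, so this is not a separate observation. Arginine at position 2 was in 93.9% of these members, glutamate at position 3 in 98.0%, glycine at position 6 in 98.0% and valine at position 7 in 95.9%, counted from the first residue, while position 5 took 10 different residues. The group had 205, 457, 11, 160 and 21 reads in HuD1 to HuD5. VREDLGVNY had 178 of its 179 reads in HuD2, VREEFGVRD 42 in HuD2 and 64 in HuD4, and AREEFGVQY 114 in HuD1. CDR3s 1 substitution from this group were common in DNP animals too, 72 of them with 413 reads.

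The group of 34 centred on ARHGIYNNYGWFAY, which had 30 neighbours, more than any other member. The group used IGHJ3 in 92.3% and IGHD1-10 in 99.5% of its reads, but its V genes were mixed, with IGHV5S23 at 34.0% and IGHV5-25 at 20.3%. It had 578, 231, 108, 625 and 13 reads in HuD1 to HuD5. ARHGLYNNYGWFAY had 10, 11, 0, 279 and 0 reads, and ARHGVYNNYGWFAY 19, 13, 0, 23 and 10. No CDR3 within 1 substitution of any of its members was read in a DNP animal, against 140 such CDR3s with 347 reads in HuD animals.

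The group of 21 joined TRGGFYRY, TRGGYYRY and ARGGYFRY. Arginine at positions 2 and 7 and glycine at position 4 were in every member, and IGHV5-31 was in 60.3% of reads. It had 0, 1290, 1048, 3 and 1289 reads in HuD1 to HuD5, so it was high in 3 animals and close to absent in 2. Its neighbours held 12824 reads in HuD and 34 in DNP animals. TRGGFYRY had 0, 1169, 240, 0 and 31 reads.

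The 3 other large groups were short loops. ASRDY and ASNDY belonged to a group of 23 with 445, 460, 132, 205 and 15 reads, ARGTGAY led one with 44, 44, 126, 19 and 31, and TTVGY one with 28, 17, 239, 17 and 70. Each had 91 to 116 neighbours in DNP reads. In these short loops 1 substitution spans much of the loop.

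Because the members were chosen as absent from DNP animals, their families were searched in all CDR3s of all 10 animals by the residues that at least 90% of a group shares. These patterns were written after the groups had been seen. The pattern xRxGxYNNYxWFAY, where x is any residue, was met by 57 CDR3s, of which 20 were members. It had 564, 225, 111, 699 and 14 reads in HuD1 to HuD5, or 3609, 1002, 660.3, 3795 and 67.5 RPM, and 0 reads in each DNP animal. The 8-residue pattern xRxGxxRx had 12.8, 6247, 33094, 967 and 35016 RPM in HuD1 to HuD5, and 7.17, 56.5, 0, 192 and 0 in DNP1 to DNP5. HuD1 lay within the DNP range, so the groups overlapped there.

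The pattern of the largest group, xRExxGVxx, had 2867, 4912, 1166, 3692 and 3076 RPM in HuD1 to HuD5, and 222, 3603, 643, 1774 and 2499 in DNP1 to DNP5. The ranges overlapped, with DNP2 above 3 of the HuD animals. CDR3s that start with ARHNSGY had 838, 1327, 1636, 2025 and 1475 RPM in HuD1 to HuD5 and 136, 226, 16.5, 88.5 and 109 in DNP1 to DNP5. The lowest HuD animal was above the highest DNP animal. Of 126 CDR3s with this start, 11 were members and 9 were read under both antigens. The 3 other large groups shared only 1 or 2 positions, so their patterns are loose. The group of ASRDY, as xxxxY, had 3861 to 19037 RPM in HuD and 8298 to 30127 in DNP animals, with means of 8637 and 15037, the only pattern with the higher mean in DNP animals. The group of ARGTGAY, as xRxxxxY, had 4985 to 46634 and 2737 to 8685, and that of TTVGY, as xTxxx, had 1866 to 16044 and 848 to 4963. All 3 overlapped between the groups. The 7 patterns come from members picked for absence in DNP animals, so their differences are descriptions without a test.

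**Figure D4:**
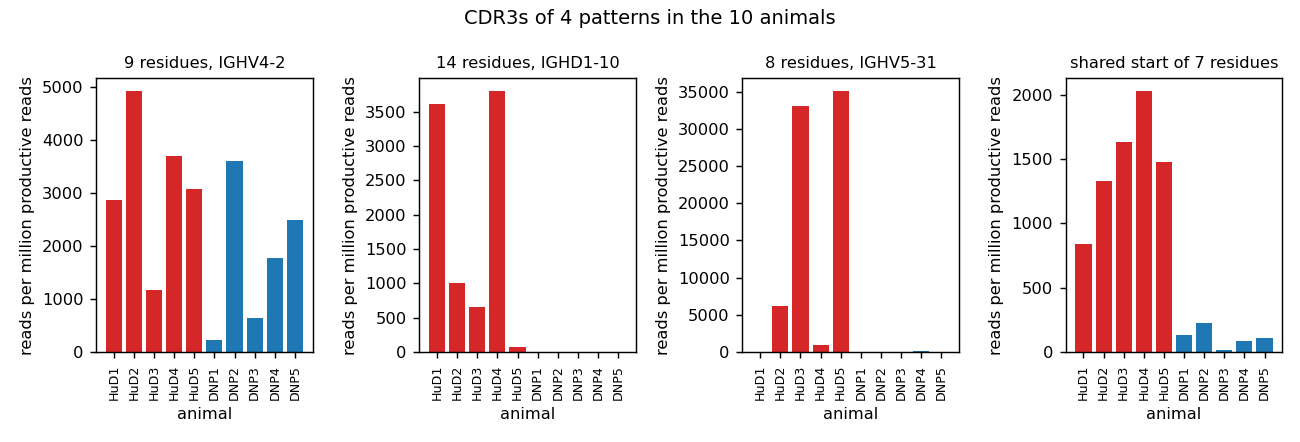
RPM (vertical) of all CDR3s that meet each of 4 of the 7 patterns in the 5 HuD (red) and 5 DNP (blue) animals, each panel with its own scale. The 14-residue pattern had 0 reads in every DNP animal, while the 9-residue IGHV4-2 pattern overlapped between the groups.

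The nucleotides behind a shared CDR3 can show whether animals used the same codons. The study's supplement states that 10 bases of the CDR3 were used to complement the tag. The start of 10 bases in the deposited tag was read here as this section. Its position in the loop was inferred from translation. In 63.4% of member reads of 8 residues or more the first 9 bases spelled residues 8 to 6 from the end of the loop. Only these reads were used. Such a section was readable in at least 2 animals for 550 members. In 262 (47.6%) at least 1 section was common to 2 animals, and in 288 (52.4%) none was among the readable reads. A common spelling in unreadable reads would be missed. Many members had 1 read in an animal, and a base error in a tag of a single copy would also make sections differ. Among DNP-only shared CDR3s 70.9% had a section in common, and among CDR3s read under both antigens 59.9%. The part of depth and of reads per animal in these shares was not tested. The sections below, 5′ to 3′, are the most read in each animal named, and are shown to set loops with 1 leading spelling beside loops with several. Capitals mark bases that differ from the most read section of that CDR3.
ARHNSGYGVMDA in HuD1 to HuD5: tcggggtacg
ARHGIYNNYGWFAY in HuD1 to HuD4: aacaactacg
TRENYYSADY in HuD1 to HuD5: gagaattact
TRGYYFDY in HuD1: acaaggggat
TRGYYFDY in HuD3: acCCgAggat
TRGYYFDY in HuD5: acCaggggGt
ARHGGLRNWFAY in HuD1: gggctacgca
ARHGGLRNWFAY in HuD3: ggActGcgGa
ARHGGLRNWFAY in HuD5: gggctacgGa
TRGGFYRY in HuD2 and HuD5: acaagagggg
TRGGFYRY in HuD3: acaagaggAg
ARHNSGYGVMDA kept its leading section in every animal, on 4 of 5, 58 of 58, 3 of 3, 106 of 107 and 99 of 99 readable reads. ARHGIYNNYGWFAY had a single section in 94, 51, 18 and 104 reads. TRGYYFDY, with 2077 reads in HuD1 and 70 in HuD3, differed by 3 bases between the leading sections of these animals. In TRGYYFDY and TRGGFYRY, loops of 8 residues, the section covers the first 3 residues, which come mostly from the V segment. The leading IGHV gene of TRGYYFDY was IGHV5-7 in HuD1, IGHV5-20 in HuD3 and IGHV2S54 in HuD5. That of TRGGFYRY was IGHV5-31 in HuD2, HuD3 and HuD5. The part of the V gene in these differences was not tested. ARHGGLRNWFAY, with 1022, 0, 17, 0 and 98 reads, differed by 3 bases in HuD3 and by 1 in HuD5 from HuD1, where the section printed was on 60 of 132 readable reads, among 8 sections. TRGGFYRY had the same leading section in HuD2 (957 of 961 readable reads) and HuD5 (14 of 25) and another in HuD3 (129 of 129). A section covers 3 residues, and the rest of the CDR3 was not compared at the nucleotide level.

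Whole variable domains were rarely the same between animals. Of the members, 93 (5.68%) had an identical domain, compared as amino acids, in 2 animals, and 33 (2.01%) had an identical tag in 2 animals. The tag was complemented with CDR3 bases, so tags of a CDR3 spelled alike agree in part by construction. In 0 members was a domain found with the same tag in 2 animals. Of 51 single reads in an animal beside at least 100 in another, 2 shared a domain and 3 a tag with that animal, and 0 shared both. Of the 8421 member reads outside the animal with the most, 503 (5.97%) had a domain also read there.

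Members were then compared with the 1095 CDR3s shared in the same way by DNP animals alone, with each CDR3 counted in the animal where its share of reads was highest. The animals of a group hold related CDR3s because the lists were selected with the group labels, and an exact permutation over the 252 sets of 5 animals keeps these lists fixed. It is therefore no valid test of this comparison: 3 of 12 features (25%) were below an adjusted 0.05 in it, which is given as a count only, and the values below are descriptions. Mean Kyte-Doolittle hydropathy, a scale on which lower is more polar, was -0.881, -0.934, -0.905, -0.975 and -0.965 in HuD1 to HuD5 and -0.779, -0.853, -0.846, -0.782 and -0.784 in DNP1 to DNP5. Acidic residues were 12.7%, 14.6%, 12.02%, 13.9% and 12.5% against 11.9%, 11.9%, 11.2%, 10.9% and 11.0%. Arginine and lysine were 10.7%, 12.002%, 12.2%, 11.7% and 11.6% against 9.40%, 10.7%, 9.53%, 9.28% and 9.62%. In all 3 the ranges did not overlap, and for arginine and lysine HuD1 and DNP2 lay next to each other.

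Members were thus more polar, by -0.123 on the hydropathy scale, and held 1.77 points more acidic and 1.94 points more basic residues. Net charge differed by 0.0256. Length was 9.45 ± 0.124 residues in HuD and 10.1 ± 0.813 in DNP animals. The acidic difference rested in good part on HuD2: without that animal it was 0.551 points, and 1.43 to 2.01 without any other animal. The basic difference was 1.67 to 2.24 points without any 1 animal, 2.05 with at least 2 reads, 2.33 with at least 5 and 1.95 at equal depth, but 0.669 with reads of at least 2 copies. In these last reads the acidic difference was 2.71 points and the hydropathy difference turned to 0.0221.

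The same 12 features over the CDR3s of 1 animal alone, a class defined without the group labels, gave 0 of 12 calls (0%) in the exact permutation test after adjustment, and 2 at an unadjusted p under 0.05. The latter were arginine and lysine, 9.77% ± 0.283 in HuD and 9.10% ± 0.268 in DNP animals (exact permutation p = 0.00794, adjusted 0.0952), and serine, with p = 0.0238 in the same exact test. When each animal's single-animal value was subtracted from its shared CDR3s, an alternative chosen after seeing the data, the difference between HuD and DNP animals was 1.27 points for basic residues, 1.45 points for acidic residues and -0.0693 for hydropathy.

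**Figure D5:**
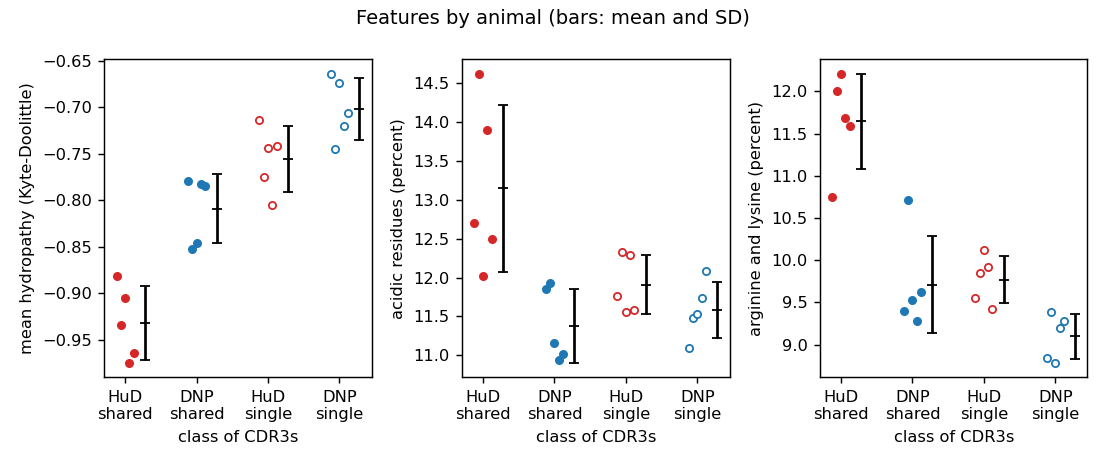
Mean hydropathy, acidic residues and arginine with lysine (vertical) for CDR3s shared within a group (filled) and read in 1 animal (open), in HuD (red) and DNP (blue) animals, with mean and SD. In the shared CDR3s the 5 HuD animals lie apart from the 5 DNP animals in each panel.

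The edge of the rule was narrow. There were 296 CDR3s read in at least 2 HuD animals with a single DNP read, which the rule left out. ARRHYGYTDYFDY, for example, had 181, 1, 0, 5742 and 1283 reads in HuD1 to HuD5 and 1 read in DNP3, more reads than any member. ARRYDFDY had 1982 HuD reads and TTGVY 1018, each beside 1 read in DNP4. On the other side, ARDAGILRY had 2480 reads in HuD1, TRTYGGYTSHWFAY 2472 in HuD5 and VRSVFDY 2266 in HuD3, each in 1 animal alone. Just inside stood the 698 members with 1 read in each of 2 animals, which held 1396 reads.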

How the data were processed

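Spleen heavy chain amplicons of 5 HuD and 5 DNP rats were used. Per the study's methods, read pairs were merged with PEAR, collapsed by molecular tag with MIGEC at a minimum of 1 read per tag, and annotated with High-VQuest; the authors deposited 1 line per tag with its copy number, a count of sequenced copies. Lines called productive with a CDR3 were kept, and each line counted as 1 read. Tags of a single copy carry no error correction. The first named IGHV, IGHD and IGHJ gene was used.

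The members and the lists were chosen with earlier results of these data known. Named members were all those in all 5 animals, the 10 with the most reads, the 10 with the highest second animal, the 5 with the most neighbours, and up to 3 of each of the largest groups; CDR3s over 14 residues are not printed. Named IGHV genes were the 10 most used and up to 5 with the largest difference among those higher, or lower, in 5 of 5 animals.

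Single-animal CDR3s of the groups were compared with exact two-sided permutations of the 10 animals (252 sets), with Benjamini-Hochberg adjustment over the 12 features. The same permutations were run on the shared CDR3s, where they are no valid test because those lists were selected with the group labels. Length and composition within animals were compared with exact sign flips, without adjustment. The permutation of animals and the neighbour search were checked on simulated CDR3s that were not selected by group. The sign flips were not checked in this way. Intervals and limits cover counting error only. Alternatives were other read minima, a carry-over limit of 1% of the highest animal, thinning to 60647 reads (10 draws), leaving out each animal, reads naming 1 IGHV gene, reads with at least 2 copies, and weighting by reads. Python 3.11.15, numpy 2.4.6 and pandas 2.3.3 were used.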

Additional observations from a re-analysis of the deposited data

Results flagged for a closer look

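Gaps were looked for among the 5 HuD or the 5 DNP animals in 45 sets of values, and in 8 the highest or lowest animal stood beyond the 95% limit (a gap over 0.71 of the whole range). That limit assumes values with a normal spread. Many of these sets are related to each other or hold skewed read counts, so the number 8 cannot be compared with a chance rate. Among shared HuD-only CDR3s, tyrosine was 17.3% of residues in HuD2, below the other 4 animals, and member reads averaged 4.72 copies per tag in HuD4. Among shared DNP-only CDR3s, arginine and lysine were 10.7% in DNP2, above the other 4. Of the members in all 5 animals, TTGRDY reached 544 and ARERNWERYFDY 186 RPM in HuD1. TREGAY reached 173 RPM in HuD3. ARHNSGYVMDA reached 59.7 and ARQGY 48.9 RPM in HuD4. Members in fewer animals were not examined for gaps, since their absence from an animal follows from how they were found. The causes were not tested.

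In lines not called productive, which the selection did not use, 16 members were found in DNP animals and 323 in HuD animals. In 14 of the 16 the DNP animals held a single such line. The loop of threonine and threonine alone, with 3 productive HuD reads, gave 983 DNP lines, and ARH gave 10. Without the 16, 1622 members remain, and all 14 members of all 5 animals are among them.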

How the results depend on the processing

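The lower length of members than of single-animal CDR3s kept its direction in every alternative run (differences of -3.05 to -2.76 residues), and in those with 5 HuD animals the exact sign-flip p was 0.0625 each time, the smallest possible. The number of members was 456 with at least 2 reads per animal, 205 with at least 5, 553.8 at equal depth and 185 with reads of at least 2 copies (an alternative chosen after seeing the data). In the same order, 4, 1, 3.2 and 1 CDR3s were read in all HuD animals. The leading IGHV gene was the same in 48.9%, 68.8%, 33.5% and 41.6%. A neighbour was found for 43.4% of members with at least 5 reads, for 45.9% at equal depth, and for 61.4% when insertions and deletions counted.

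In each of these 4 settings, and with a minimum of 1% of the highest animal's reads, 0 of the 12 features were below an adjusted 0.05 in the exact permutation over fixed lists, which is no valid test of shared CDR3s, with 3 or 4 at an unadjusted p under 0.05, except 0 with reads of at least 2 copies. The share of productive reads was 10.7% in sequenced copies and 10.8% with reads of at least 2 copies. The length difference to DNP-only CDR3s was -1.81 weighted by reads, and turned to 0.292 with reads of at least 2 copies, as hydropathy did to 0.0221. The cause was not tested.

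Leaving out 1 animal gave 892 to 1798 members, 14 to 29 CDR3s in all remaining HuD animals, 0 to 5 features below an adjusted 0.05 in that permutation, 24.4% to 27.9% with the same IGHV gene, and 47.9% to 59.8% with a neighbour. It gave a share of 4.71% to 8.69% and a length difference to DNP-only CDR3s of -1.13 (without DNP1) to -0.161. The animal numbers pair nothing in the labels. With the numbers as a replicate block, 0 features were below an adjusted 0.05, 0 at an unadjusted p under 0.05, and the length difference stayed at -0.632, and with 5 pairs 0.0625 is the smallest exact p. Deviations of same-numbered animals correlated between -0.513 and 0.218.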
